A study of Mus musculus with 6 samples.

Results

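The genes described here are 8 genes of mast cells, taken by symbol from 52550 Ensembl identifiers: the granule proteases Mcpt1, Mcpt2, Mcpt4, Cpa3 and Tpsb2 and the receptor genes Kit, Fcer1a and Ms4a2. They were selected on an earlier reading of the same 6 libraries, in which Mcpt1 and Mcpt2 had lower values with atorvastatin, and all 8 matched 1 row each. RNA was sequenced from epithelial cells isolated from the colon of adult male Apc Min/+ mice aged 5 to 6 weeks, which carry a truncating mutation in 1 copy of the tumour suppressor Apc. By gavage on alternate days, the mice behind 3 libraries received atorvastatin at 20 mg/kg, a statin that inhibits cholesterol synthesis, and those behind the other 3 received only the vehicle, 2% Tween 80. Both groups carry the Apc Min allele, and no wild-type group was analysed here. The labels number the libraries but do not say whether each came from 1 animal, so the spread between them may be partly technical. The comparison asks how the drug changes gene expression in the colon epithelium.

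Mast cells are tissue-resident leukocytes that release granules filled with proteases, histamine and heparin-like proteoglycan when IgE on their surface is cross-linked. In the mouse gut, mucosal mast cells sit within the epithelium and the lamina propria beneath it and store the chymases encoded by Mcpt1 and Mcpt2, whereas connective tissue mast cells of the submucosa store the chymase of Mcpt4, the tryptase of Tpsb2 and the carboxypeptidase of Cpa3. KIT, the receptor for stem cell factor, keeps mast cells alive, and FCER1A and MS4A2 are the alpha and beta chains of the high-affinity IgE receptor. KIT is also made by interstitial cells of Cajal, the pacemaker cells of the gut wall, and by secretory cells at the base of colon crypts.

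Mcpt1 and Mcpt2 lie in the same gene cluster, with Mcpt9 between them, and are close relatives, which bears on whether short reads can be assigned to either. On GRCm38, Mcpt1 (ENSMUSG00000022227) lies on the plus strand of chromosome 14 from 56017971 to 56020384 and Mcpt2 (ENSMUSG00000022226) on the same strand from 56042041 to 56044642, each with 5 exons. Their coding sequences of 738 and 732 bases were 80.4% identical. The longest stretch without a difference was 49 bases. It is shown within coding bases 14 to 102 of each gene (GENCODE M21), counted from the first base of the start codon and written 5′ to 3′, with capitals at the 2 bases that differ in this window.
Mcpt1: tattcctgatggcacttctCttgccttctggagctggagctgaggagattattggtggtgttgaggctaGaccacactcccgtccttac
Mcpt2: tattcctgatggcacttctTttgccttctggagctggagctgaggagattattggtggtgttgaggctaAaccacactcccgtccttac
No 50-base word of the Mcpt1 or Mcpt2 transcript occurred in the transcripts of another gene, on either strand. The same held for Cpa3, Tpsb2, Kit and Fcer1a. For Mcpt4, 5.48% of its 50-base words were shared with Cma2 or Mcpt9, and for Ms4a2 2.1% were shared with Ms4a4b. Neither the read length nor the rule for multiply mapping reads is given in the sources used here. Reads shorter than the 49-base stretch could still be shared between Mcpt1 and Mcpt2. The longest identical coding stretch of Mcpt1 was 46 bases with Mcpt4 and 42 bases with each of Mcpt9 and Cma2, so shorter reads could be shared there too.

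The sequence before the start site is printed for Mcpt1, in control the most abundant of the 5 protease genes among the 8, and for its relative Mcpt4, which was close to 0, because both windows hold the same GATAA word. RefSeq promoters (GRCm38.p6) were found for 6 of the 8 genes. Capitals mark GATAA on either strand in the 250 bases before the start, written 5′ to 3′ on the gene's own strand. The Mcpt1 window is chr14:56017714-56017963 on the plus strand and the Mcpt4 window is chr14:56062311-56062560 on the minus strand.
Mcpt1: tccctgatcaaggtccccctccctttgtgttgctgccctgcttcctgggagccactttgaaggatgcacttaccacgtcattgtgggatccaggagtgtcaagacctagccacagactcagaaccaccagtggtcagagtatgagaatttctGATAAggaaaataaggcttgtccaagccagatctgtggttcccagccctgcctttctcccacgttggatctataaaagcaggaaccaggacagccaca
Mcpt4: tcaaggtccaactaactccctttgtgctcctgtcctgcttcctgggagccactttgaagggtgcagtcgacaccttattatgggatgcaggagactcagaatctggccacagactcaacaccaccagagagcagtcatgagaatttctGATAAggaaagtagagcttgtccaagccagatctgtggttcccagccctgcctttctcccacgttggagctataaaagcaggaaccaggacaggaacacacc
These windows were 81.5% identical over 254 aligned columns. GATAA, the core of the word bound by GATA factors, was present on either strand before 5 of the 6 genes (Mcpt1, Mcpt4, Cpa3, Fcer1a and Ms4a2) and before 22.6% of all 32851 promoters. It was not in the window of Kit. The E-box words CACATG (12.3% of all promoters) and CACGTG (6.02%), both searched on either strand, were present before 1 and 0 of the 6, the former in Fcer1a. A match is a description of the letters only.

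The values are FPKM (fragments scaled to gene length and to the library's mapped total), so levels can be set beside each other between genes. Between 11456 and 11655 genes reached 1 FPKM in a library. Relative depth was judged from the value of 1 read, taken as the commonest ratio between libraries among genes under 0.15 FPKM. With control replicate 1 set to 1, it ran from 0.996 to 1.14, the latter in control replicate 3. The labelled cell type was checked against epithelial markers, which were abundant: Epcam ran from 479 to 565 FPKM and Krt8 from 2625 to 2871 FPKM. None of 10 housekeeping genes was listed at 0 in any library. The mitochondrial ribosomal RNA mt-Rnr1, whose level varies with library preparation, was lower with atorvastatin (1160 to 1526 FPKM) than in control (1828 to 2631 FPKM), and its part in the differences described next was not tested.

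Mcpt1 and Mcpt2 were high in the control libraries and low in every atorvastatin library, Kit was level, and the other 5 genes lay under 0.3 FPKM throughout. In control, the means ran in the order Mcpt1, Kit, Mcpt2, Cpa3, Tpsb2, Mcpt4, Fcer1a and Ms4a2. The control ranges of Mcpt1 and Kit overlapped, whereas Kit was above Mcpt2 in each control library. With atorvastatin, Kit was the most abundant, followed by Mcpt1, Mcpt2 and Tpsb2. In bulk RNA, fewer cells of a type and less RNA per cell cannot be told apart.

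**Figure D1:**
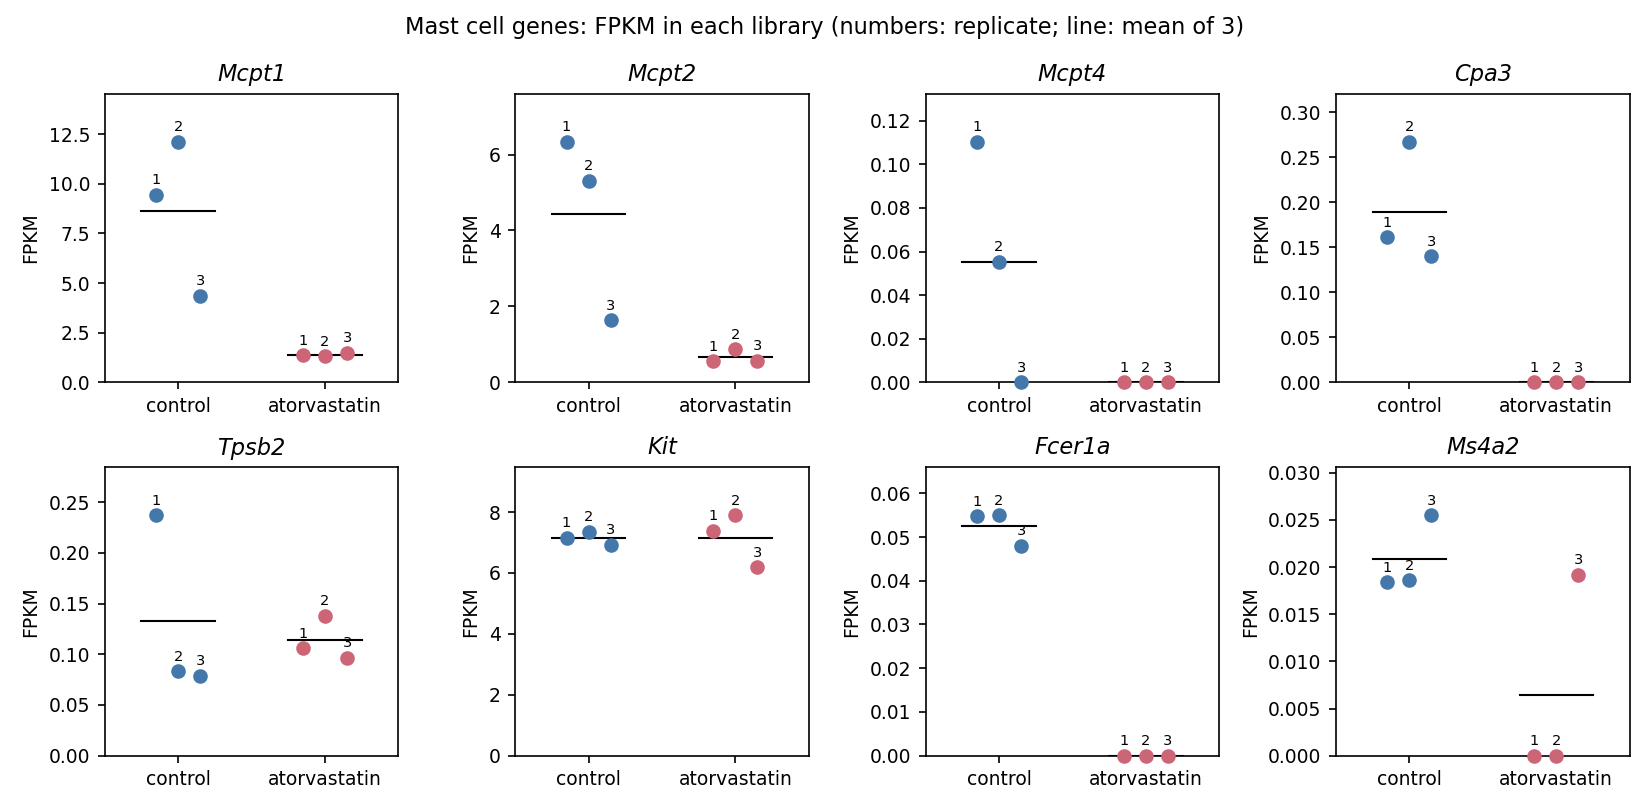
FPKM of the 8 mast cell genes (y axes, from 0, with a different scale in each panel) in the 3 control and 3 atorvastatin libraries; numbers give the replicate and lines the mean of 3. Mcpt1 and Mcpt2 have no overlap between the groups and Cpa3 and Fcer1a are listed at 0 with atorvastatin, while Kit lies between 6.20 and 7.90 FPKM in all 6 libraries.

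Mcpt1, which encodes the mucosal mast cell chymase mMCP-1, was at 9.46, 12.1 and 4.37 FPKM in control replicates 1, 2 and 3 and at 1.36, 1.31 and 1.48 FPKM in atorvastatin replicates 1, 2 and 3. The groups did not overlap, the controls spread widely with replicate 3 the lowest, and the atorvastatin libraries lay close together. The mean was 8.65 ± 3.94 FPKM (SD, n = 3) in control and 1.38 ± 0.0849 FPKM (SD, n = 3) with atorvastatin, a ratio of 6.25. Expressed as log2(FPKM + 1), a scale that compresses low genes, the difference was -1.92 ± 0.31 (standard error). It was the fifth lowest of 11644 differences, a rank that follows from how the gene came to be chosen.

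Mcpt2, which encodes the second mucosal chymase mMCP-2, was at 6.34, 5.32 and 1.63 FPKM in the control replicates and at 0.548, 0.873 and 0.569 FPKM in the atorvastatin replicates. Again no values overlapped, and control replicate 3 lay nearer to the atorvastatin libraries than to the other controls. The means were 4.43 ± 2.48 and 0.663 ± 0.182 FPKM (SD, n = 3 each), a ratio of 6.68, and the difference was -1.58 ± 0.37 on the log2(FPKM + 1) scale. The ratio of Mcpt1 to Mcpt2 lay between 1.49 and 2.67 in control and between 1.5 and 2.59 with atorvastatin, and these ranges overlapped.

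These members were proposed with the atorvastatin contrast known, so no test of it is used here as support. In the fit across all genes (limma, Benjamini-Hochberg adjusted p under 0.05), 0 of the 3 members with at least 1 FPKM in at least 3 libraries passed, where 47 of 11644 genes did (0.404%). The adjusted p was 0.072 for Mcpt1, 0.172 for Mcpt2 and 0.994 for Kit, and 2 of the 3 (Mcpt1 and Mcpt2) had an unadjusted p under 0.05, as had 1399 of the 11644 genes (12%). Mcpt2 passed the filter on low values only through its controls, so its difference was partly fixed by the filter. Groups did not overlap, with atorvastatin lower, for 4 of the 8 members (Mcpt1, Mcpt2, Cpa3 and Fcer1a) and for 5.13% of the 28981 genes above 0 in at least 1 library.

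The position of the threshold turned on control replicate 3. Without it, the differences were -2.30 ± 0.11 for Mcpt1 and -2.04 ± 0.12 for Mcpt2, with a limma adjusted p of 0.0046 for each. It was the control with the lowest Mcpt1 and Mcpt2, so leaving it out was bound to enlarge both differences. This p is therefore not used as support. Without any other single library, Mcpt1 lay between -1.95 and -1.65 and Mcpt2 between -1.67 and -1.30, and neither passed. The number of genes called moved as well, to 7, 30 and 72 when control replicates 1, 2 and 3 were left out in turn, and to 13 and 18 when atorvastatin replicates 1 and 3 were.

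**Figure D2:**
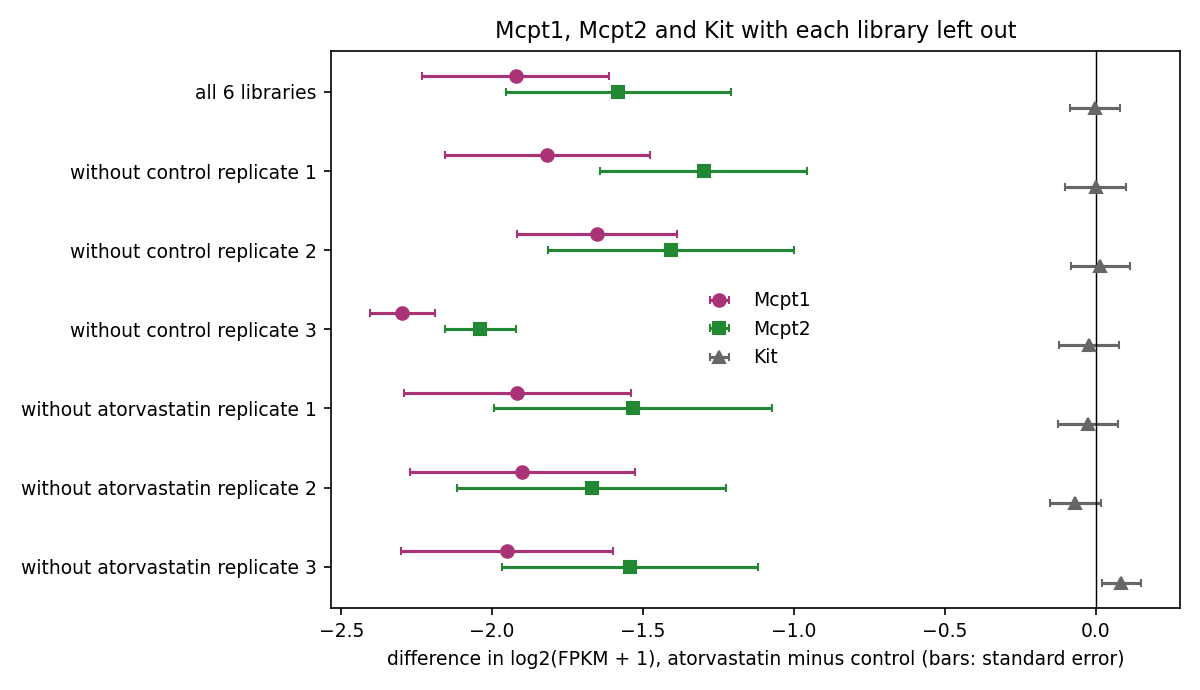
Difference in log2(FPKM + 1) between atorvastatin and control (x axis, with standard errors) for Mcpt1, Mcpt2 and Kit, in all 6 libraries and with each library left out. Mcpt1 and Mcpt2 stay below 0 in every row, with the lowest values and the narrowest errors without control replicate 3, and Kit lies within 0.09 of 0.

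The other 3 protease genes among the 8, Cpa3, Mcpt4 and Tpsb2, were close to the lower limit of the data. Cpa3 (ENSMUSG00000001865, chromosome 3, 20215620 to 20242181, minus strand), the mast cell carboxypeptidase, was at 0.161, 0.267 and 0.140 FPKM in control and was listed at 0 in all 3 atorvastatin libraries. Mcpt4 (ENSMUSG00000061068, chromosome 14, 56059629 to 56062313, minus strand), the chymase mMCP-4, was at 0.11 and 0.0553 FPKM in control replicates 1 and 2 and listed at 0 in the other 4 libraries. Tpsb2 (ENSMUSG00000033825, chromosome 17, 25366305 to 25369098, plus strand), the tryptase mMCP-6, had overlapping groups, at 0.237, 0.0833 and 0.0787 FPKM in the vehicle libraries and 0.106, 0.138 and 0.0968 FPKM in the treated ones. No fold is given for Cpa3 or Mcpt4, since one group was listed at 0.

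The IgE receptor chains were lower still. Fcer1a (ENSMUSG00000005339, chromosome 1, 173221284 to 173227214, minus strand) was at 0.0548, 0.0550 and 0.0480 FPKM in control and listed at 0 in each atorvastatin library. Ms4a2 (ENSMUSG00000024680, chromosome 19, 11615523 to 11623719, minus strand) was at 0.0184, 0.0186 and 0.0255 FPKM in control and at 0, 0 and 0.0192 FPKM with atorvastatin. Cpa3 and Fcer1a shared the pattern of a value in every control and 0 in every atorvastatin library with 92 genes in all, 0.317% of those above 0 anywhere; the reverse pattern was found for 78 genes (0.269%).

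The values of Fcer1a, Mcpt4 and Cpa3 are likely to rest on few reads. After division by the value of 1 read in each library, the control values of Fcer1a were equal, those of Mcpt4 stood at 2 to 1 to 0 and those of Cpa3 at 3 to 5 to 3, each within 0.1 of a whole number. They are the smallest whole numbers that describe the values, and the read counts themselves were not recovered. No such whole numbers were found for Tpsb2 or Ms4a2. Mcpt1 exceeded Cpa3 by 58.8, 45.4 and 31.2 times in control replicates 1, 2 and 3. The chymases of mucosal mast cells were thus measured above 1 FPKM in each control library, while both IgE receptor chains and the other 3 proteases among the 8 were under 0.3 FPKM in the same libraries.

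Kit (ENSMUSG00000005672, chromosome 5, 75574916 to 75656722, plus strand) had a different profile. It was at 7.16, 7.35 and 6.92 FPKM in the vehicle libraries and 7.38, 7.90 and 6.20 FPKM in the treated ones, so the groups overlapped and the atorvastatin libraries held both the highest and the lowest value. The difference was -0.003 on the log2(FPKM + 1) scale, with a 95% interval of -0.20 to 0.20. Leaving out single libraries gave -0.07 to 0.09, so no direction is assigned. Over the 6 libraries the Pearson correlation of Kit with Mcpt1 was 0.071 (Spearman -0.43), given as a description.

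Kit was set beside genes of the other cells known to make it. Of 3 markers listed for interstitial cells of Cajal, 1 was tested: Ano1, a chloride channel gene also made by epithelia, at 17.5 to 27.6 FPKM in the vehicle libraries and 21.0 to 33.9 FPKM in the treated ones. The others, Etv1 and Gja1, lay under 1 FPKM in every library. Groups overlapped for Gja1 but not for Etv1, at 0.0667 to 0.0805 FPKM in control and 0.0933 to 0.142 FPKM with atorvastatin. Of 8 genes of KIT-positive deep crypt secretory cells, 7 were tested, 5 with positive and 2 with negative differences at a median of 0.08, and 0 passed limma's test (1 at an unadjusted p under 0.05, beside 12% of all tested genes). In this list the mucin gene Muc2 was at 397 to 698 FPKM. Agr2, Reg4 and Spink4, secretory cell genes, had control means of 658, 209 and 165 FPKM and atorvastatin means of 766, 256 and 188 FPKM. Groups overlapped for Agr2 and Reg4. For Spink4, the gene with the unadjusted p under 0.05, they did not, at 155 to 175 FPKM in control and 179 to 194 FPKM with atorvastatin. Of the 11644 tested genes, 1400 had groups apart with atorvastatin higher. Whether the levels of the listed genes come from the cells that make KIT was not tested.

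The ligand of KIT was present throughout. Kitl, which encodes stem cell factor, was at 21.4, 24.2 and 24.3 FPKM in the vehicle libraries and 23.7, 21.7 and 20.8 FPKM in the treated ones, with overlapping groups. Its level was 2.75 to 3.51 times that of Kit in each library. Of 15 listed mast cell growth factors and homing genes, 3 were tested, all with negative differences at a median of -0.11, and 0 passed limma's test (1 at an unadjusted p under 0.05, beside 12% of all tested genes). These were Kitl, Itgb6, a chain of the integrin that activates TGF-beta on epithelia (means of 4.26 and 3.86 FPKM in control and atorvastatin), and Itgae, the CD103 integrin chain of intraepithelial leukocytes (1.93 and 1.22 FPKM). Itgb7, its partner chain, was not tested and was at 1.14 and 0.600 FPKM. Groups overlapped for Itgb6, Itgae and Itgb7 as well. They did not overlap, with atorvastatin lower, for 2 of the 15 genes, where the share was 5.13% of genes above 0. These were Il4 (0.109 to 0.132 FPKM in control and 0.0611 to 0.101 FPKM with atorvastatin) and Il10 (0.0905 to 0.236 and 0.0042 to 0.0850 FPKM). Il33 went the other way without overlap, at 0.493 to 0.644 FPKM in control and 0.666 to 0.793 FPKM with atorvastatin. The mast cell growth factors Il3 and Il9 and also Il25 were listed at 0 in all 6 libraries.

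Other mast cell granule and mediator genes were mostly low. Of 17 listed, 13 stayed under 1 FPKM in every library and 3 were tested, 1 positive and 2 negative at a median of -0.12, beside a median of 0.02 over all 11644 tested genes. In limma's test 0 of these 3 passed, with 1 at an unadjusted p under 0.05 (12% of all tested genes). Srgn, which encodes the proteoglycan core serglycin of leukocyte granules, was at 3.60, 3.65 and 2.26 FPKM in the vehicle libraries and 1.49, 1.21 and 1.83 FPKM in the treated ones. Serglycin is made by many leukocytes, not mast cells alone. Tpsg1, a transmembrane tryptase gene, was the most abundant of the list at 10.3 ± 1.35 and 10.9 ± 1.12 FPKM (SD, n = 3 each), with overlapping groups, and its span overlaps Cacna1h, with which 7.6% of its 50-base words were shared. Ndst2, needed for heparin synthesis, was at 2.14 and 1.88 FPKM. Groups did not overlap, with atorvastatin lower, for 7 of the 17 genes (Cma2, Mcpt9, Tpsab1, Hdc, Srgn, Alox5ap and Ptgs1), all but Srgn under 1 FPKM, where the share was 5.13% of genes above 0.

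The signalling genes under the IgE receptor did not separate the groups. Of 10 listed, 5 were tested, 3 with positive and 2 with negative differences at a median of 0.01, and 0 passed limma's test or had an unadjusted p under 0.05. The kinase genes Syk and Lyn had control means of 10.8 and 6.34 FPKM and atorvastatin means of 9.76 and 6.18 FPKM. Gab2, an adaptor, and Plcg1, a phospholipase, were at 4.24 and 3.33 FPKM in the vehicle libraries and 4.35 and 3.37 FPKM in the treated ones. The list of 8 transcription factors and cytokine receptors had no gene at 1 FPKM in any library. Their summed level was 0.847 to 1.09 FPKM in control against 0.475 to 0.612 FPKM with atorvastatin. Groups did not overlap, with atorvastatin lower, for 3 of the 8 (Csf2rb, Il9r and Tal1), where the share was 5.13% of genes above 0. Il9r and Tal1 were close to the lower limit of the data. Il9r was at 0.0159 to 0.0210 FPKM in control and 0 to 0.0134 FPKM with atorvastatin. Tal1 was at 0.0055 to 0.0062 FPKM in control and listed at 0 with atorvastatin. Csf2rb, the shared beta chain of cytokine receptors on many myeloid cells, had the highest mean of the list, at 0.471, 0.456 and 0.307 FPKM in the vehicle libraries and 0.0924, 0.102 and 0.152 FPKM in the treated ones. Gata2, a factor mast cells depend on, was at 0.0200 to 0.0602 FPKM, and Gata1 was listed at 0. The 3 basophil markers were close to 0 as well, with a summed level of 0.0319 to 0.0526 FPKM in the vehicle libraries and 0.0045 to 0.0135 FPKM in the treated ones. Prss34 was listed at 0 throughout, and Mcpt8 was above 0 only in control replicate 2 (0.0270 FPKM). In every other library the sum was therefore Cd200r3 alone.

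Mcpt1, Mcpt2 and Mcpt4 belong to a cluster of chymase and granzyme genes on chromosome 14, and its genes differed widely in level. Of 15 listed, 6 were listed at 0 in every library (Ctsg, Gzmd, Gzme, Gzmf, Gzmg and Gzmn) and 3 were tested (Mcpt1, Mcpt2 and Gzmb), all with negative differences, none past limma's test and 3 at an unadjusted p under 0.05, beside 12% of all tested genes. Of these 3, Mcpt1 and Mcpt2 were chosen for this difference, so their count supports nothing about the cluster. Mcpt9, which lies between Mcpt1 and Mcpt2 on the minus strand, was at 0.0571 to 0.220 FPKM in the vehicle libraries and 0.0135 to 0.0346 FPKM in the treated ones. Mcpt9 shares 98.1% of its coding sequence with Cma2, so their values are uncertain. Cma1, the chymase of connective tissue mast cells at the cluster's edge, was at 1.04, 0.791 and 0.787 FPKM in the vehicle libraries and 0.852, 0.886 and 0.364 FPKM in the treated ones, with overlapping groups.

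**Figure D3:**
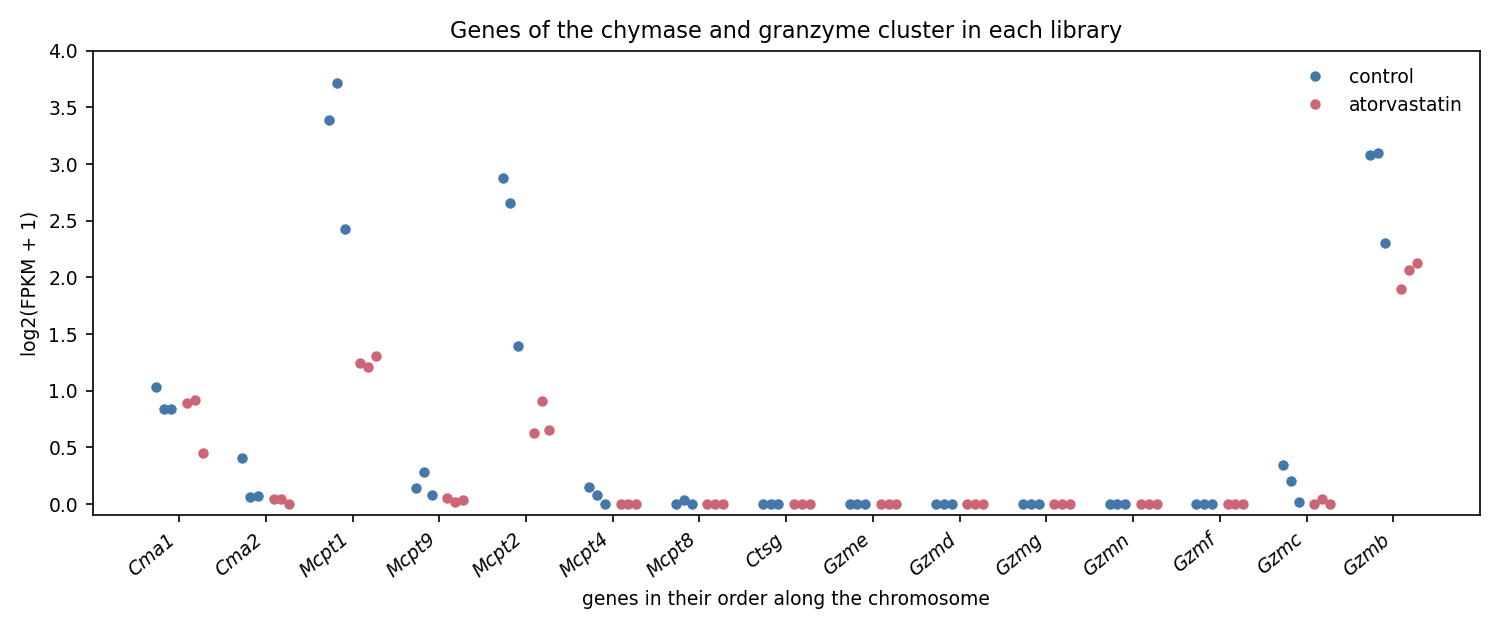
Level as log2(FPKM + 1) (y axis) of the 15 genes of the chymase and granzyme cluster, in their order along the chromosome (x axis), for the 3 control and 3 atorvastatin libraries. Mcpt1, Mcpt2 and Gzmb stand above their neighbours and are lower in each atorvastatin library, and 6 genes are listed at 0 throughout.

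At the other end of the cluster, Gzmb, the granzyme of cytotoxic lymphocytes, had the same order of control libraries as Mcpt1. It was at 7.47, 7.58 and 3.93 FPKM in the vehicle libraries and 2.73, 3.19 and 3.38 FPKM in the treated ones, a difference of -0.80 ± 0.22 on the log2(FPKM + 1) scale (limma adjusted p = 0.217). The ratio of Mcpt1 to Gzmb was 1.27, 1.60 and 1.11 in control and 0.50, 0.412 and 0.437 with atorvastatin, and these ranges did not overlap. Mcpt1 relative to Ptprc, the pan-leukocyte gene that encodes CD45, was 5.22, 6.13 and 3.81 in control and 1.98, 1.59 and 1.26 with atorvastatin. Mcpt1 was therefore lower by a larger factor than either leukocyte gene, as a description of these 6 libraries. Mcpt1 was chosen for its low values with atorvastatin, so this order is partly fixed by the choice and supports nothing.

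Summed markers of other leukocytes were also lower with atorvastatin, with control replicate 3 the lowest control for each. Their part in the protease values was not tested. Gene by gene, groups did not overlap, with atorvastatin lower, for 5 of 9 T and NK cell markers. The same held for 4 of 7 B and plasma cell markers and 4 of 7 macrophage and dendritic cell markers. The share was 5.13% of genes above 0, so such separation was not particular to the mast cell lists. The summed level of 9 T and NK cell markers was 16.3 to 29.5 FPKM in the vehicle libraries and 11.7 to 15.8 FPKM in the treated ones. Of these, 6 were tested, all negative at a median of -0.49. Limma called 0, and 5 had an unadjusted p under 0.05, where 12% of all tested genes had one. Most of the T and NK cell sum came from the granzyme genes Gzma and Gzmb. Gzma was at 4.80 to 10.6 FPKM in the vehicle libraries and 3.50 to 5.48 FPKM in the treated ones, with overlapping groups. Groups overlapped for Cd3g, Cd8a and Klrd1 as well. The sum of 7 B and plasma cell markers was 5.08 to 11.4 and 2.55 to 3.20 FPKM, with 2 tested (Igkc and Igha) at a median of -1.09, 0 called and 2 at an unadjusted p under 0.05 (12% of all tested genes). Most of that sum came from these antibody chain genes, and Igha passed the filter only through its controls, at 1.17 to 2.47 FPKM against 0.422 to 0.648 FPKM. The B cell genes Cd79a, Cd79b and Ms4a1 were too low to be tested, with control means of 0.178, 0.0628 and 0.0404 FPKM, atorvastatin means of 0.216, 0.0808 and 0.0634 FPKM, and overlapping groups. The sum of 7 macrophage and dendritic cell markers was 3.66 to 6.95 and 2.44 to 2.89 FPKM. Of these, 2 were tested (Lyz2 and Cd68), at a median of -0.44. Limma called 0, and 1 had an unadjusted p under 0.05 (12% of all tested genes). The difference was -0.84 for Lyz2, the largest part of the control sum, and -0.04 for Cd68, whose groups overlapped. Ptprc itself was at 1.81, 1.98 and 1.15 FPKM in the vehicle libraries and 0.688, 0.824 and 1.17 FPKM in the treated ones, so its groups overlapped.

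Markers of neutrophils, eosinophils, stroma and endothelium were low. The 8 neutrophil and eosinophil markers summed to 0.111 to 0.834 FPKM in the vehicle libraries and 0.0868 to 0.383 FPKM in the treated ones, and Ccr3 was listed at 0 throughout. The 9 stromal and endothelial markers summed to 0.326 to 1.01 and 0.485 to 0.551 FPKM. The 8 epithelial markers were all tested, 2 positive and 6 negative at a median of -0.06, with 0 called and 0 at an unadjusted p under 0.05.

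**Figure D4:**
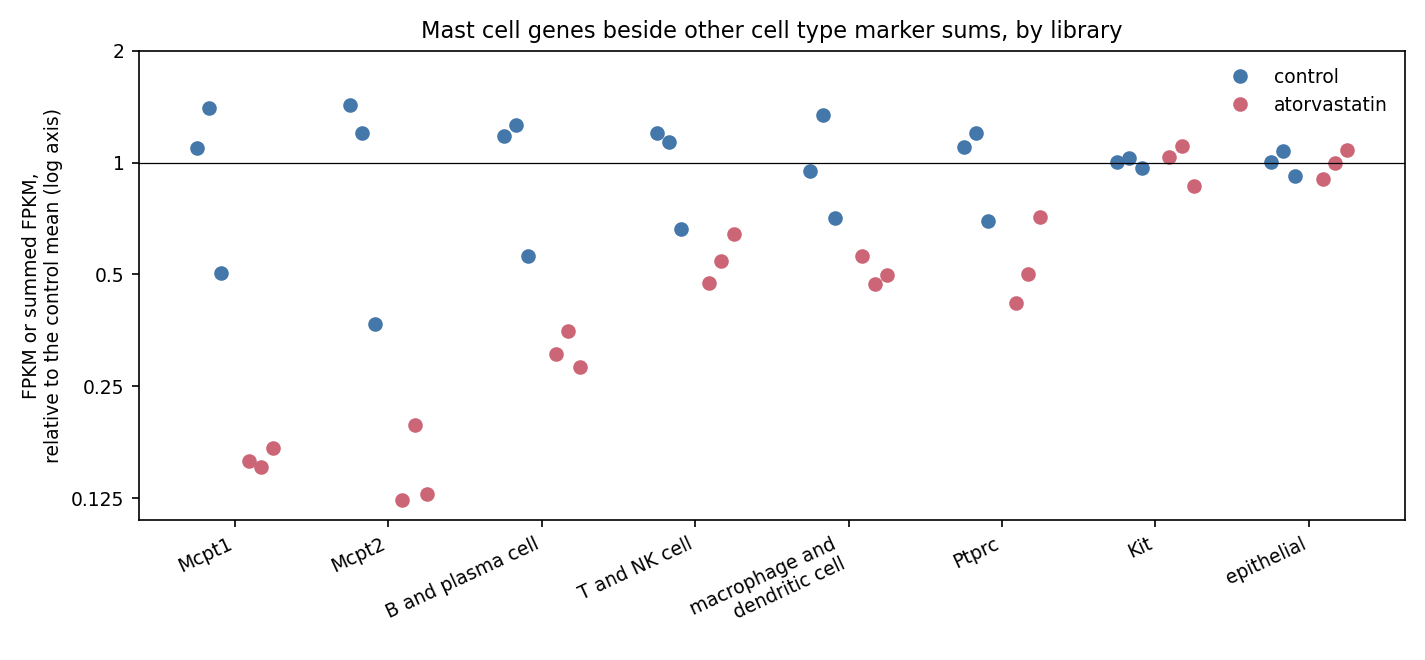
FPKM of Mcpt1, Mcpt2, Ptprc and Kit, and the summed FPKM of marker lists of other cell types, each divided by its control mean (y axis, log scale), in the 3 control and 3 atorvastatin libraries. Mcpt1 and Mcpt2, chosen for this difference, have the lowest atorvastatin means relative to control of the items plotted. The B and plasma cell sum follows, and Kit and the epithelial sum lie around 1.

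The genes whose pattern over the 6 libraries was most like a member's were listed by Pearson correlation of log2(FPKM + 1), as a description of libraries that share the group difference and the low control replicate 3. For Mcpt1 these were Ikbke, Rad51d, Smpdl3a, Prmt2 and H2-Aa, with correlations of 0.988 to 0.990 and Spearman values of 0.77 to 0.94. The order among them carries little, since 181 tested genes reached a correlation of 0.9 with Mcpt1. H2-Aa, a chain of MHC class II, had a difference of -1.27, and the other genes of the set had differences of -0.28 to -0.11. For Mcpt2 the nearest were Ehmt2, Igha, Marveld3, Nol8 and Gzmb, at 0.984 to 0.998. Mcpt1 and Mcpt2 correlated at 0.969 with each other, and at 0.898 after each group's mean was removed. Srgn correlated with Mcpt1 at 0.970 and Igkc at 0.987.

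For Kit the nearest genes were Rgs17, Plpp1, Gpr20, P2rx4 and Fyco1, with correlations of 0.977 to 0.993 and differences between groups of -0.03 to 0.02. Each of these 5 genes had its lowest value in atorvastatin replicate 3 and its highest in atorvastatin replicate 2, as Kit had. None of the 5 was among the genes nearest to Mcpt1 or Mcpt2. These traits and the small group differences follow largely from picking the genes for likeness to Kit.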

How the data were processed

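The authors deposited 1 value per gene and library, read as FPKM from the values because the totals differed between libraries (407857 to 430832) and were not whole-numbered. FastQC 0.11.2 and Bowtie are the tools, and mm10 the build, named per the submitters' processing notes; the sources used here give no quantification tool, annotation or strand setting. FPKM divides by the library total, so abundant transcripts scale all others, and it carries no read totals. Count models and counting intervals were therefore not applied. Symbols were found for 99.72% of identifiers, positions from GENCODE M21 and promoters from RefSeq.

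The 11644 genes that reached 1 FPKM in 3 or more libraries were compared as log2(FPKM + 1) with limma 3.58.1 in R 4.3.3 (trended, robust, two-sided, Benjamini-Hochberg adjusted over all genes), checked on simulated data. The fit used 3 libraries per group without a replicate block. Alternatives were pseudocounts of 0.1 and 0.5, no filter, a mean of 0.3 FPKM, a filter of 5 FPKM, quantile, median-ratio and upper-quartile scaling, the 20 most abundant and the mitochondrial genes left out, each library left out with the same genes tested, and a replicate block. Members and lists were chosen with earlier results of these data known. Named genes are the members, up to 4 of each other list by mean FPKM, and the 5 tested genes most like Mcpt1, Mcpt2 and Kit. Further genes were named after their values were seen, where a short count, a listing at 0 or the overlap of their groups singled them out.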

Additional observations from a re-analysis of the deposited data

How the results depend on the processing

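Mcpt1 and Mcpt2 kept a negative difference under every alternative that could be run, and passed limma's test in none but that without control replicate 3. With the abundant and mitochondrial genes left out, the adjusted p of Mcpt1 was 0.0508; over all its alternatives it ran from 0.0046 to 0.287, and that of Mcpt2 from 0.0046 to 0.411. Neither could be fitted with a filter of 5 FPKM in 3 libraries, where they were not tested. The differences depended on the pseudocount in size, at -2.44 and -2.39 with 0.1. Kit ran from -0.068 to 0.085 with a library left out, changed sign without control replicate 2 (0.015) and without atorvastatin replicate 3 (0.085), and passed nowhere. The count of 47 genes called ran from 7 to 72 with a library left out and was 2 with no filter; the cause was not tested. Under scaling alternatives it was 53 to 57. With the replicate block, 1 gene was called, and the adjusted p of Mcpt1 was 0.205. Deviations of same-numbered libraries correlated at -0.139, -0.106 and 0.0136, which shows no pairing by number. With 3 libraries per group, these values cannot exclude one. The values of Fcer1a, Mcpt4 and Cpa3 are likely to rest on few reads, and for genes under about 0.3 FPKM a 0 does not show that the gene was absent.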
